A study of Mus musculus with 12 samples.

Results

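Gene expression in the proximal colon, measured by RNA-Seq, was compared between 4 APC Min/+ and 6 WT mice. These 10 mice were the ones, of 12 sequenced (6 of each genotype), in which the distal gene Hoxb13 lay below 10 plain CPM (its count divided by the library's total count, times 1000000). The rule left out 2 APC Min/+ mice and no WT mouse, so Hoxb13 itself chose the mice and is described here without a test. The question addressed was which differences between the genotypes were measured once the libraries rich in distal transcripts had been set aside.

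APC Min/+ mice are heterozygous for a truncating mutation of Apc and form intestinal adenomas as they age. The WT mice carry no such allele. All 12 were C57BL/6 mice, described as female and killed at 6 weeks of age. The labels name proximal colonic mucosa, and the study's methods describe a section of the gut placed in RNAlater, from which total RNA was taken. Genotypes were housed in separate cages, so genotype and cage cannot be told apart. The mice arrived in several shipments, which the sample labels do not give.

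Apc is the scaffold of the complex that marks beta-catenin (Ctnnb1) for destruction. When the complex fails, beta-catenin builds up and switches on Wnt target genes such as Axin2, Lgr5 and Myc in the crypts. In APC Min/+ mice the remaining normal allele keeps the pathway in check until it is lost in the cell that founds an adenoma. Hox genes of the last paralogue groups (9 to 13) mark position along the gut, and Hoxb13 is normally used by the distal colon and rectum.

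Hoxb13 was counted at 0.733 plain CPM in APC Min/+ mouse M8_2, 0.247 in M18_2b, 0 in M2_A and 0.0245 in M20_1. The 6 WT mice ranged from 0 to 0.391 with a median of 0.0199. The 2 mice outside the threshold of 10 held 302 and 397 plain CPM, so no mouse lay near the limit. The same break was seen in Hoxa13 and Hoxd13 among others, but not in all posterior Hox genes. These are given as a description only. Hoxa13 was counted at 0.96 to 2.15 plain CPM in the 4 APC Min/+ mice kept and 0.909 to 2.92 in WT mice, against 67.8 to 80.4 in the 2 left out. Hoxd13 was counted at 0.229 to 0.525 plain CPM in the 4 kept, 0.0545 to 0.352 in WT and 13 to 229 in the 2 left out. Hoxb9, a gene of the more anterior colon, was counted at 74.8 to 98.0 plain CPM in the 4 kept, 82.6 to 100.2 in WT and 53.5 to 60.4 in the 2 left out. Hoxa11 did not separate the mice, at 5.71 to 6.23 plain CPM in the 4 kept and 5.31 to 6.26 in the 2 left out. Hoxd10 was at 10.8 to 15.3 in the 4 kept, and at 3.46 and 32.2 in the 2 left out. Hoxc10 went the other way, at 0.587 to 1.12 in the 4 kept and 0 in both left out. The 18 posterior Hox and Evx genes summed to 134 to 151 plain CPM in the 4 kept, 123 to 176 in WT and 678 to 860 in the 2 left out.

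**Figure D1:**
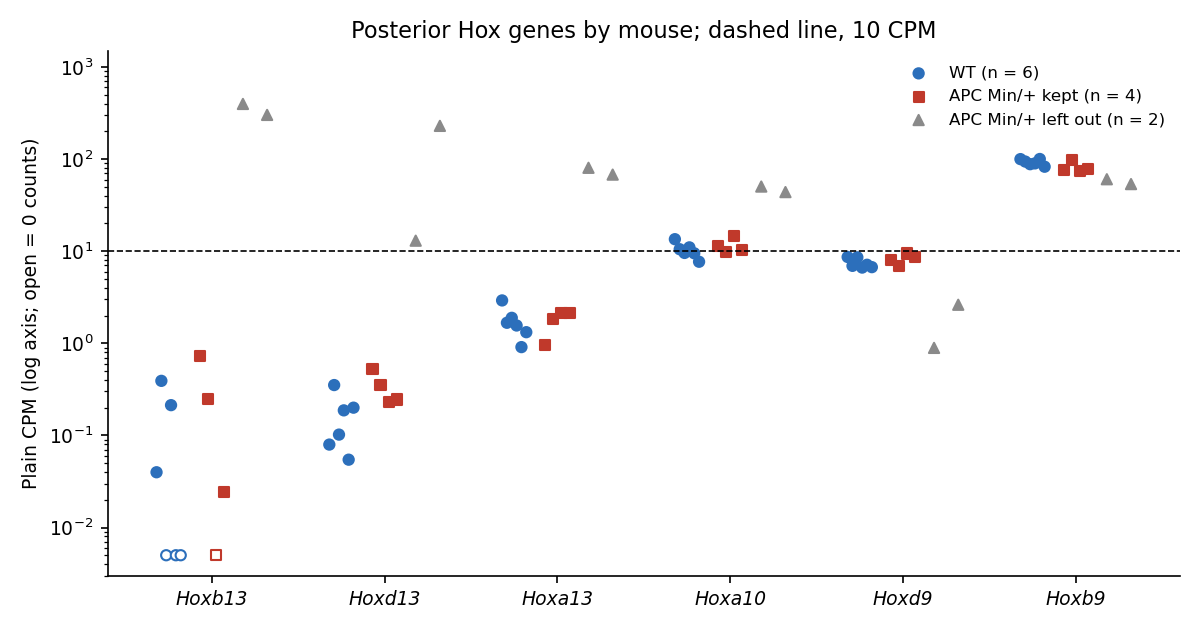
Plain CPM (log axis) of 6 Hox genes in each mouse, with WT in blue circles, the 4 APC Min/+ mice kept in red squares and the 2 left out in grey triangles; open symbols had 0 counts. The ranges of the kept mice and WT mice overlap for each gene shown, while the left-out mice lie at 302 and 397 CPM for Hoxb13.

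Markers of the labelled tissue were present in all 10 mice. Car1, the carbonic anhydrase of surface colonocytes, was counted at 21438, 14964, 27125 and 25848 CPM in M8_2, M18_2b, M2_A and M20_1, and at 14438 to 32088 in WT (from here on, CPM of single genes are scaled by TMM factors). Muc2, the mucin of goblet cells, was counted at 2792 to 6722 CPM in the 4 APC Min/+ mice and 3752 to 10402 in WT. Genotypes overlapped for both. In bulk tissue such as this, fewer cells of a type and less RNA per cell cannot be told apart. Summed over the list of absorptive colonocyte genes, the 10 mice held 29948.8 to 47819.8 plain CPM and the 2 left-out mice 9361 to 11841. The small intestine list, led by Fabp2, summed to 1385 to 2034 plain CPM in the 10 mice and 139 to 166 in the 2 left out. The exocrine pancreas list summed to 62.0 to 104 in the 10 and 1124 to 1142 in the 2 left out. Of its 13 genes, Sycn and Spink1 made up most of the latter, at 396 to 425 and 394 to 462 plain CPM. Whether pancreas tissue was present was not tested.

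The libraries held 81730206 to 197914821 counts on genes in the 4 APC Min/+ mice and 50313805 to 117477400 in the WT mice. At these depths 3 counts correspond to 0.0152 to 0.0596 CPM. Between 72.5% and 78.1% of the counts from 1 to 100 in a library were even numbers, against 50.5% to 52.5% of those over 1000, a pattern that counting both mates of a read pair would give. WT mouse M17_1 stood apart from the other 9, with a median Spearman correlation of 0.968 over genes against 0.982 to 0.990. It also held 12.7% of its counts on mitochondrial genes. Each library is from a separate mouse and was treated as 1 replicate.

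Testing covered the 19978 genes that reached 10 counts in 3 or more of the 10 mice. By the quasi-likelihood test of edgeR, 0 genes (0%) combined an FDR under 0.05 with a 2-fold difference. The lowest FDR was 0.9999. DESeq2, edgeR's exact and likelihood ratio tests and limma voom also called 0 genes, with lowest FDRs of 0.393, 0.478, 0.283 and 0.998. At an unadjusted p under 0.05 there were 317 genes (1.59%) by the quasi-likelihood test, 429 by DESeq2, 338 by the exact test, 379 by the likelihood ratio test and 381 by voom. Of the 317, 106 (0.531%) were higher and 211 (1.06%) were lower in APC Min/+ mice. About 999 of the 19978 genes would be expected at that p with no difference, more than any of these methods gave. For 28 of the 317, no mouse of the lower genotype reached 10 counts, as for 63 of all genes tested.

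The CPM ranges of the genotypes did not overlap for 49 genes (0.245%), of which 21 (0.105%) were higher and 28 (0.14%) lower in the 4 APC Min/+ mice. Low expression was common among them. Of the 21, 14 averaged under 1 CPM, as did 16 of the 28, against 5164 (25.8%) of all genes tested. The precision of the comparison can be read from the 95% intervals of the fold changes, which lay wholly within 2-fold either way for 16170 genes (80.9%). Among the 14814 genes of at least 1 CPM that share was 94.2%.

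With all 12 mice and the same test, 0 genes were called as well and 1071 had an unadjusted p under 0.05. The likelihood ratio test then called 15 genes (10 higher, 5 lower) and DESeq2 27 (20 higher, 7 lower), both runs added after seeing the data.

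Apc, on chromosome 18 from 34220924 to 34322552 (GRCm38, forward strand), was counted at 213, 188, 162 and 197 CPM in M8_2, M18_2b, M2_A and M20_1. The WT mice ranged from 152 to 235 CPM with a median of 183, and the genotypes overlapped throughout. The log2 fold change (APC Min/+ over WT) was 0.05 (SE 0.14, 95% interval -0.25 to 0.34, FDR 0.9999, edgeR). Its sign was not stable, since the value ran from -0.01 to 0.13 as single mice were left out. A gene-level count cannot tell transcripts of the mutant allele from those of the normal one.

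The 11 genes of the Apc and destruction complex list were all tested, and 0 had an unadjusted p under 0.05. Their median log2 fold was 0.05, with a range of -0.12 to 0.21, beside -0.01 for all genes tested. The 95% interval lay within 2-fold either way for 11 of 11. Without M17_1 the median was -0.03, with 9 of 11 below 0, and without M2_A it was 0.14, with 9 of 11 above 0. Ctnnb1, which encodes beta-catenin, was counted at 1043, 1074, 1081 and 1104 CPM in the 4 APC Min/+ mice and at 835 to 1193 (median 1105) in WT. These values overlap, with a log2 fold of 0.01 (SE 0.12).

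Of 24 Wnt target and stem cell genes, 0 had an unadjusted p under 0.05 in either direction and 18 had a log2 fold above 0. The median was 0.08 and the range -0.39 to 0.46. Without M18_2b the median was -0.01, and without M2_A it was 0.23 with 20 of 24 above 0. The 95% interval lay within 2-fold either way for 18 of 24. Axin2, a feedback inhibitor and standard readout of the pathway, was counted at 20.5, 25.9, 10.3 and 14.8 CPM in M8_2, M18_2b, M2_A and M20_1, and at 12.4 to 23.9 (median 15.6) in WT. M18_2b held the highest and M2_A the lowest value of all 10 mice. The log2 fold was 0.04 (SE 0.26, 95% interval -0.53 to 0.60). Lgr5, the receptor that marks crypt stem cells, was counted at 19.9, 17.04, 13.9 and 11.6 CPM against 11.9 to 18.17 (median 15.4), again with overlap, and its log2 fold was 0.06 (SE 0.17). Ccnd1 and Cd44, the most abundant members per length, had log2 folds of 0.10 (SE 0.15) and -0.07 (SE 0.11).

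Of 23 proliferation genes, 22 had a log2 fold above 0, with a median of 0.17, a range of -0.01 to 0.32 and 0 members at an unadjusted p under 0.05. Their summed level was 1008, 810, 1030 and 809 plain CPM in M8_2, M18_2b, M2_A and M20_1, and 750 to 971 (median 794) in WT. The highest WT value, in M18_b, lay above those of M18_2b and M20_1. The median log2 fold of the list ran from 0.09 without M8_2 to 0.27 without M18_2b. Pcna, the clamp of the replication fork, had a log2 fold of 0.03 (SE 0.15) and Mcm6, of the replicative helicase, one of 0.16 (SE 0.16).

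The study grouped the genes it called between all 6 APC Min/+ and 6 WT mice into 7 clusters, of which 116 of 130 gene names were found in GENCODE M21. These genes were chosen on these same libraries, and the values that follow are a description. Cluster 1 held 63 tested genes. In the fit to all 12 mice, 63 of the 63 had a fold of at least 2, with a median log2 fold of 3.28. In the 10 mice, 4 of the 63 did, with a median of 0.11 and a range of -0.86 to 1.36. Summed over the cluster, the 2 left-out mice held 13230.6 and 13661 plain CPM, the 4 kept APC Min/+ mice 354 to 393 and the WT mice 334 to 374.

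The 4 past 2-fold in the 10 mice were Hoxb13, Hoxd13, Myh2 and Ms4a10, named after their values were seen, and Hoxb13 is the gene of the rule. Ms4a10, of a family of membrane-spanning proteins, was counted at 1.64, 0.514, 0.663 and 1.49 CPM in M8_2, M18_2b, M2_A and M20_1, and at 0.258 to 0.709 (median 0.449) in WT. Only M8_2 and M20_1 lay above every WT mouse. Its log2 fold was 1.16 (SE 0.36, unadjusted p = 0.00726, FDR 0.9999, edgeR). Tgm3 and Atp12a, also named after their values were seen, had 95% intervals that span 0 in the 10 mice. Tgm3, a transglutaminase of cornified epithelium, was counted at 5.29, 1.64, 0.663 and 1.11 CPM in the 4 kept, 0.290 to 2.89 in WT, and 2405 and 2265 plain CPM in the 2 left out. The fold was, on the log2 scale, 8.93 over 12 mice and 0.58 (95% interval -0.99 to 2.15) over 10. Atp12a, the colonic proton-potassium pump subunit, had a log2 fold of 6.29 over 12 mice and 0.21 (95% interval -0.66 to 1.07) over 10.

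**Figure D2:**
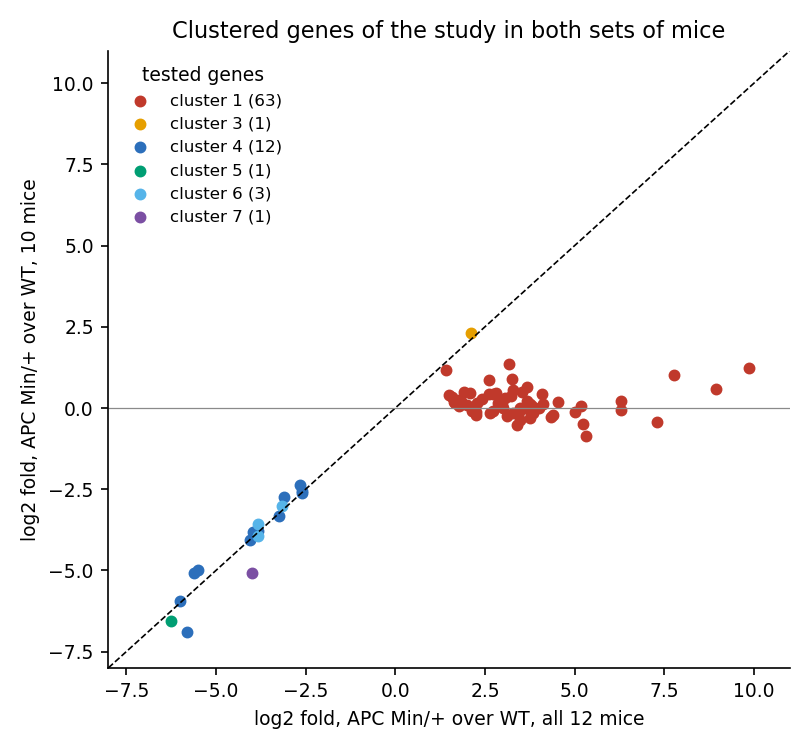
Log2 fold (APC Min/+ over WT) of the 81 tested genes of the study's clusters, in the fit to all 12 mice (x axis) and to the 10 mice (y axis), with the dashed line marking equal values; the axes share 6 WT and 4 APC Min/+ mice. The 63 genes of cluster 1 have a median of 0.11 in the 10 mice against 3.28 in all 12, while the genes of clusters 4 to 7 all lie at -2.375 or lower in the 10 mice. In a fit without WT mice M17_1 and M18_2a, not shown, the cluster 4 genes with a value ranged from -3.67 to -0.66.

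The clusters of lower genes were lower in both fits, which share their WT mice. All 12 tested genes of cluster 4 had an unadjusted p under 0.05 and a lower level in the 10 mice, beside 1.06% of all genes tested. The study had picked them as lower on these same WT mice, so this count is no test of them. The median log2 fold of the 12 genes was -3.81 in the 10 mice and -3.91 in all 12. Without M17_1 that of Igkv3-5 went from -5.94 to -0.62 and that of Igkv9-124 from -3.78 to -1.09. For Rmrp it stayed at -3.36 or lower as single mice were left out. Clusters 5, 6 and 7 held 1, 3 and 1 tested genes, with median log2 folds of -6.57, -3.56 and -5.09 in the 10 mice and -6.26, -3.82 and -4.004 in all 12. None of these passed the FDR. The tested genes of clusters 4 to 7 are small structured RNAs or immunoglobulin V genes. Cluster 3 is the single gene Apon, and the 5 genes of cluster 2 were not tested. Among the 10 mice they were counted almost wholly in M8_2, as with Gm10800 at 43.4 CPM in M8_2, 0 to 0.0252 in the other 3 APC Min/+ mice and 0 to 0.0189 in WT.

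The 12 genes with the lowest unadjusted p among those lying wholly higher in APC Min/+ mice were Il17b, Apon, Colq, Myh2, Dnajb13, Dusp6, Gm2670, Syt16, Dnah1, Basp1, B3gat2 and Hyal3. The gap between the genotypes was part of how these genes were picked. Each had an FDR of 0.9999 in edgeR's test. Il17b is a cytokine of the interleukin 17 family on chromosome 18 (61684887 to 61692538). The 4 APC Min/+ mice held 0.304, 0.217, 0.228 and 0.277 CPM, in the order M8_2, M18_2b, M2_A and M20_1, and the WT mice 0.0728 to 0.151 (median 0.108). The values rest on 22 to 60 counts per APC Min/+ mouse and 6 to 16 per WT mouse. This gave a log2 fold of 1.24 (SE 0.27, 95% interval 0.64 to 1.83, unadjusted p = 0.00067, edgeR), and it stayed between 1.13 and 1.36 when each mouse was left out. The 2 left-out APC Min/+ mice held 0.0106 and 0.0242 plain CPM, below every WT mouse.

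Apon encodes apolipoprotein N and lies on chromosome 10 (128254096 to 128255896). The 4 APC Min/+ mice held 0.0607, 0.138, 0.103 and 0.0756 CPM and the WT mice 0 to 0.0369 (median 0.0186). These are 42 counts over the 4 APC Min/+ mice and 10 over the 6 WT mice. The ratio of the summed counts per total was 5.05, with an exact 95% counting interval of 2.49 to 11.3, whose lower bound is 1.85 when each pair of counts is taken as 1. Such intervals cover counting error only, not the spread between mice. Apon passed the filter through 3 APC Min/+ mice alone, with 0 WT mice at 10 counts, so a tested gene of this kind had to differ. Among the 24 leading genes that also held, in the other direction, for Gm26035 and Gm17067. The fitted log2 fold of Apon was 2.296 (SE 0.54), and the 2 left-out APC Min/+ mice also lay above WT, at 0.0636 and 0.0727 plain CPM.

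Colq, the collagen tail that anchors acetylcholinesterase at synapses, was counted at 0.886, 0.731, 0.921 and 1.15 CPM against 0.422 to 0.655 (median 0.526) in WT. The log2 fold came to 0.76 (SE 0.20). Myh2, a fast myosin heavy chain of skeletal muscle, was counted at 0.304, 0.138, 0.217 and 0.164 CPM against 0.0379 to 0.121 (median 0.0894). Its log2 fold was 1.36 (SE 0.36) in the 10 mice and 3.18 in all 12, and the 2 left-out mice held 1.65 and 2.29 plain CPM. Dnajb13, a chaperone-family protein of cilia and sperm tails, was counted at 0.162, 0.247, 0.207 and 0.277 CPM against 0.0369 to 0.134 (median 0.0845). The fold was, on the log2 scale, 1.26 (SE 0.35).

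Dusp6 was the only gene of the 12 above 5 CPM. This phosphatase switches off ERK and is itself a target of ERK signalling. It was counted at 45.9, 42.0, 43.2 and 46.0 CPM in M8_2, M18_2b, M2_A and M20_1, and at 34.0 to 41.0 (median 36.3) in WT. The gap between M18_2b and the highest WT mouse, M18_b, was small. This gave a log2 fold of 0.27 (SE 0.09, 95% interval 0.08 to 0.46, unadjusted p = 0.0097, edgeR). One left-out APC Min/+ mouse lay above WT at 47.6 plain CPM and the other within it at 38.3. The other 6 genes of this group had log2 folds of 0.47 (Hyal3) to 1.05 (Gm2670). Il17b overlaps Gm38165 on the opposite strand, Gm2670 is annotated on the strand opposite to Wnt5a, and Dnajb13 lies opposite to Ucp2. Hyal3 shares its strand with Hyal1 and Naa80, and Colq with Gm24057 and Gm49387. Myh2, Syt16, Dnah1 and B3gat2 also overlap a gene on the opposite strand. Whether counting used strand is not given in the sources used here, so reads of such neighbours cannot be told apart.

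The 12 genes lying wholly lower in APC Min/+ mice with the lowest unadjusted p were Gm26035, Rps19-ps10, Gm22513, 0610043K17Rik, Gm17067, Gm16060, Gm13245, Tmem52b, Gm14963, Mir7662, Gm15850 and mt-Tm, and each had an FDR of 0.9999 in edgeR's test. Most are noncoding. Rps19-ps10, a processed pseudogene of the ribosomal protein gene Rps19, was counted at 0.304, 0.435, 0.414 and 0.630 CPM in M8_2, M18_2b, M2_A and M20_1, and at 0.699 to 1.11 (median 0.747) in WT. The log2 fold came to -0.90 (SE 0.24), a value that the placing of reads shared with the parent gene could change. The 2 left-out APC Min/+ mice, at 0.679 and 1.19 plain CPM, lay just below and above the WT range.

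Tmem52b, one of the 2 protein-coding genes of the 12, was counted at 0.182, 0.0988, 0.166 and 0.151 CPM against 0.221 to 0.362 (median 0.246) in WT, with a log2 fold of -0.86 (SE 0.27). It was at 0.0106 and 0.0242 plain CPM in the 2 left-out mice. The mitochondrial methionine tRNA gene mt-Tm was counted at 0.633, 0.959, 1.17 and 1.02 CPM against 1.19 to 2.17 (median 1.37), with M2_A just below the lowest WT mouse. Its log2 fold was -0.67 (SE 0.23). The lincRNA gene 0610043K17Rik had a log2 fold of -0.98 (SE 0.29), and the other 6 ranged from -1.93 (Gm14963) to -0.70 (Gm15850) apart from the small RNA genes Gm26035 and Gm22513.

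**Figure D3:**
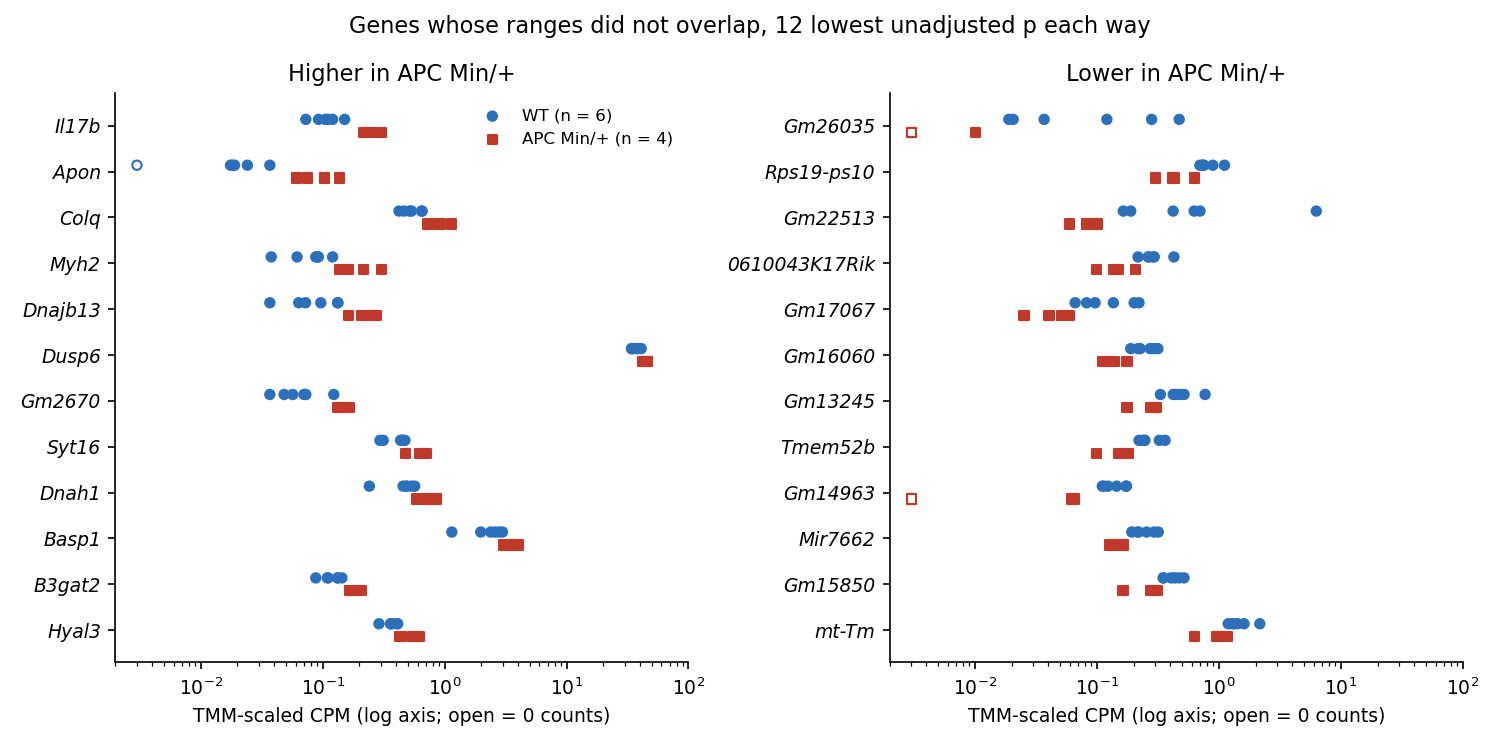
TMM-scaled CPM (log axis) in each of 6 WT mice (blue circles) and 4 APC Min/+ mice (red squares) for the 12 genes with the lowest unadjusted p among those whose ranges did not overlap, in each direction; open symbols had 0 counts. Dusp6 is the only gene above 5 CPM in every mouse, Gm22513 reaches 6.29 CPM in M17_1, and most others lie below 1 CPM.

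Gm26035 and Gm22513 are copies of abundant small nuclear RNAs, and both are among the 12 lower genes named. They are printed here with Rn7sk, which Gm26035 resembles, and with Rmrp, which had the lowest p of the small structured RNA list. Rmrp is the RNA of the RNase MRP enzyme. Rn7sk is the 7SK RNA, which holds the elongation factor P-TEFb in check, and Gm26035 matches it at 223 of 233 aligned bases (95.7%). Gm22513 matches the U1 spliceosomal RNA gene Rnu1a1 at 163 of 164 bases (99.4%). Capitals mark the bases of Gm26035 not matched to Rn7sk, and the base of Gm22513 not matched to Rnu1a1. All are GENCODE M21 transcripts on GRCm38, read 5′ to 3′, with the longer Rn7sk and Gm26035 shown for their first 300 bases, from chr4:43492788-43493058 (minus strand), chr9:78175334-78175633 (minus), chrX:152923461-152923760 (minus) and chr12:54696782-54696945 (plus).
Rmrp: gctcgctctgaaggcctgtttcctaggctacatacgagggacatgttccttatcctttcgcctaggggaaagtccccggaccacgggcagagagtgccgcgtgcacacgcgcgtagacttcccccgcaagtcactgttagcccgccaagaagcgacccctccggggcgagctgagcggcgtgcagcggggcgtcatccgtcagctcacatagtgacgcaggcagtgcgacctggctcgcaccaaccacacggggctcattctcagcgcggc
Rn7sk: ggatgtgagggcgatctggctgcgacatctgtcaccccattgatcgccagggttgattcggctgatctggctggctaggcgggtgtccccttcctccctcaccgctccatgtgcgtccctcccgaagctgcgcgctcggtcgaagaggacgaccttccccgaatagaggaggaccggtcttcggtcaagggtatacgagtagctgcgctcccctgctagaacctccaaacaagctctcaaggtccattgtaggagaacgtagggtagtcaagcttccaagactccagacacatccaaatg
Gm26035: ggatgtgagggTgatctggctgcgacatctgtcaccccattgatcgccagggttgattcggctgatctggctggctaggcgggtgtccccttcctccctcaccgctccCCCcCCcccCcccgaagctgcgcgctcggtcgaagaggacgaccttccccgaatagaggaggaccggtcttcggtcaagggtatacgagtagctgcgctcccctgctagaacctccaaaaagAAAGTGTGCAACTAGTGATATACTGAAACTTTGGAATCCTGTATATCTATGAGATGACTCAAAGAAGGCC
Gm22513: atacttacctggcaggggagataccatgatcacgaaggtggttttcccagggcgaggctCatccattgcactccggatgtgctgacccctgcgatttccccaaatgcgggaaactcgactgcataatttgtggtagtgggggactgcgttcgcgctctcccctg

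The tail of Gm26035, in capitals, has no match in Rn7sk, whereas the rest of it could draw reads of Rn7sk. For Gm22513, 7 other annotated small RNA genes lie at 1 mismatch or fewer. Each of those 7 held 0 to 10 counts over the 10 mice. Gm22513 held 6 to 18 per APC Min/+ mouse and 16 to 692 per WT mouse. Rn7s1 and Rn7s2, copies of the 7SL RNA of the signal recognition particle, are identical over their 300 bases. How reads that fit several copies were counted is not given in the sources used here, so the counts of single copies are uncertain.

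Rmrp was counted at 0.121, 0.0593, 0.290 and 0.428 CPM in M8_2, M18_2b, M2_A and M20_1. The WT mice ranged from 0.349 to 7.39 with a median of 1.45, and the highest values were in M18_2a and M17_1. One APC Min/+ mouse, M20_1, lay above the lowest WT mouse. The fold was, on the log2 scale, -3.83 (SE 1.003, 95% interval -6.02 to -1.65, unadjusted p = 0.00246, FDR 0.9999, edgeR). It ran from -4.33 to -3.36 when each mouse was left out, and was -2.15 without M17_1 and M18_2a together.

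Rn7sk was counted at 0.769, 1.13, 3.04 and 1.66 CPM and at 1.15 to 32.7 (median 3.68) in WT, so the genotypes overlapped. The log2 fold of -2.74 (SE 0.93) was -0.78 without M17_1 and M18_2a. Gm22513 was counted at 0.0911, 0.0593, 0.0828 and 0.101 CPM and at 0.165 to 6.29 (median 0.524) in WT, where M17_1 held the highest value. The log2 fold came to -4.06 (SE 1.13), and -2.29 without M17_1 alone. Gm26035, which passed the filter through WT mice alone, had 2 counts over the 4 APC Min/+ mice, both in M8_2. The 6 WT mice held 100, of which 52 were in M17_1. The ratio per total was 0.024, with an exact 95% counting interval of 0.00287 to 0.0891. That interval reaches 0.14 when each pair of counts is taken as 1, and it covers counting error only, not the spread between mice.

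Of the 9 small structured RNAs of the list, most of them made by RNA polymerase III, 7 were tested, and 6 had an unadjusted p under 0.05 and a lower level in APC Min/+ mice, beside 1.06% of all genes tested. The 6 were Rmrp, Rn7sk, Rn7s1, Rn7s2, Rpph1 (the RNA of RNase P) and Vaultrc5 (a vault RNA). Rpph1 overlaps Ccnb1ip1 on its strand, and Rn7s1 and Rn7s2 also overlap annotated genes on theirs. The median of the 7 was -2.74, beside -0.01 for all genes tested. Terc, the telomerase RNA, had a log2 fold of -0.48 (SE 0.77). Without M17_1 and M18_2a the log2 folds of Rn7s1, Rn7s2, Rpph1 and Vaultrc5 were -1.13, -1.18, -0.999 and -0.86. Several of these genes were in the study's cluster 4, which was chosen on these mice.

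Summed per library, the 9 RNAs took 0.000180%, 0.000192%, 0.000491% and 0.000378% of the counts in M8_2, M18_2b, M2_A and M20_1. The WT mice ranged from 0.000294% to 0.00635% with a median of 0.000833%. The APC Min/+ mean was 0.000310 ± 0.000151% (SD, n = 4) and the WT mean 0.00212 ± 0.00248% (SD, n = 6). M17_1 and M18_2a lay far above the other WT mice, and WT mouse M16_1 lay below M2_A and M20_1. The log2 share differed by -1.996 (APC Min/+ minus WT), with p = 0.081 in an exact two-sided permutation test over the mice, in which the smallest p possible is 0.00476. Without M16_1 the difference was -2.39 with p = 0.0476 in the same exact permutation test, and without M17_1 and M18_2a together it was -0.92 with p = 0.171. The labels give mice a name ending in 1, 2 or a letter, of unstated meaning, and within these endings the difference was -1.32, -3.01 and -1.16. Of the kept mice, only M2_A and M18_b have the letter ending, and M20_1 is the only APC Min/+ mouse of ending 1.

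The 2 WT mice with the highest share were also extreme in other properties of the libraries, though not always in the same ones. M17_1 and M18_2a had the lowest summed immediate early genes (305 and 554 plain CPM, against 756 to 1311 in the other 8 mice). M17_1 had the highest mitochondrial share, and M18_2a the highest count on transcripts that overlap ribosomal RNA repeats (21162.5 plain CPM, against 1335 to 13233 in the others). On those transcripts M17_1 held 5518 plain CPM, inside the range of the others. The mitochondrial share of M18_2a, 8.08%, lay below the 8.46% of APC Min/+ mouse M2_A. The kind of RNA selected for the libraries is not given in the sources used here. The part of these properties in the result was not tested.

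**Figure D4:**
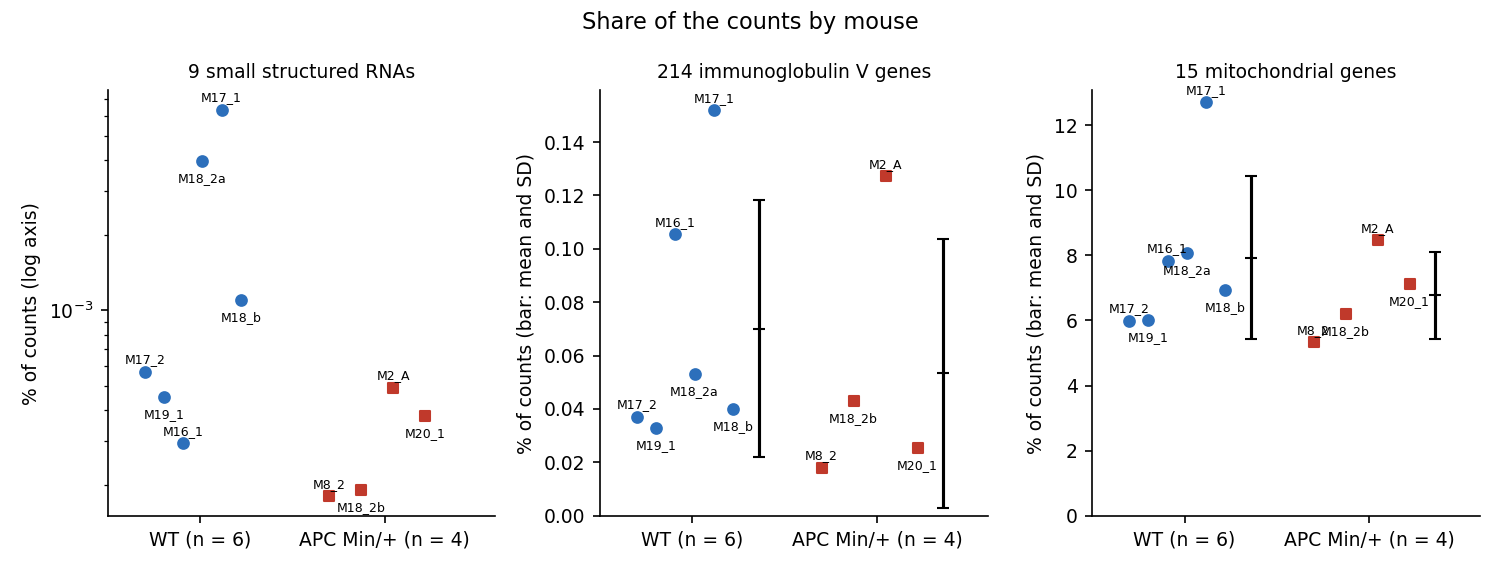
Share of counts (%) on 9 small structured RNAs (log axis), 214 immunoglobulin V genes and 15 mitochondrial genes in each of 6 WT mice (blue circles) and 4 APC Min/+ mice (red squares), with mean and SD bars on the linear panels. M17_1 is the highest mouse in each panel, and the genotypes overlap in all 3.

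The immunoglobulin V genes encode the variable parts of antibodies, and each plasma cell clone uses a single heavy and light chain V gene. Of 214 V genes, 163 were tested, of which 1 was higher and 24 lower in APC Min/+ mice at an unadjusted p under 0.05 (1.59% of all genes). The median log2 fold was -0.74 (-2.26 without M2_A, -0.23 without M17_1) and the range -6.89 to 2.69, and the 95% interval lay within 2-fold for 0 of the 163. Their summed share of counts was 0.0180%, 0.0428%, 0.127% and 0.0254% in M8_2, M18_2b, M2_A and M20_1, and 0.0330% to 0.152% (median 0.0465%) in WT. M2_A lay above all WT mice but M17_1. The means were 0.0533 ± 0.0503% (SD, n = 4) and 0.0700 ± 0.0482% (SD, n = 6). The log2 difference was -0.57 with p = 0.405 in an exact permutation test, and it ran from -1.126 without M2_A to -0.185 without M8_2. Within the name endings 1, 2 and letter it was -1.67, -0.68 and 1.67, so its sign was not the same in each. The value above 0, of the letter ending, rests on M2_A against M18_b alone.

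Single V genes differed from mouse to mouse far more than this sum. Ighv5-15, which passed the filter through WT mice alone, had 1 count in each of the 4 APC Min/+ mice. Its WT values ranged from 0 to 3.65 CPM with a median of 0.457, with M16_1 the highest. The summed counts were 4 against 537, of which 355 were in M16_1. The ratio per total was 0.00895, with an exact 95% counting interval of 0.00243 to 0.0231. That interval reaches 0.0461 when each pair of counts is taken as 1, and it covers counting error only, not the spread between mice. Igkv5-48 was counted at 2.35, 2.25, 4.43 and 0.655 CPM in M8_2, M18_2b, M2_A and M20_1, and at 2.05 to 61.3 (median 24.1) in WT. Its log2 fold was -3.33 (SE 0.92, FDR 0.9999, edgeR), with M19_1 and M18_b inside the APC Min/+ range. Igkv14-100 was counted at 0.0101, 0.336, 0.114 and 0 CPM and at 0.0369 to 11.3 (median 1.70), with a log2 fold of -5.09 (SE 1.46). In the other direction stood Igkv4-55, named after its value was seen, at 0.081 CPM in M8_2, 0.563 in M18_2b, 25.7 in M2_A and 4.999 in M20_1, against 0.334 to 3.06 in WT. The 12 V genes of these clusters match their nearest annotated V gene at 82.5% to 96.9% of aligned bases, so reads may be shared between them.

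The antibody constant region and secretion list had a median log2 fold of -0.39, with 2 of 18 members above 0 and 0 at an unadjusted p under 0.05. Igkc, the kappa constant region, was counted at 112, 93.2, 973 and 136 CPM in M8_2, M18_2b, M2_A and M20_1 and at 113 to 983 (median 318) in WT. The 3 low APC Min/+ mice lay near or below the lowest WT mouse, and M2_A near the highest. The fold was, on the log2 scale, -0.40 (SE 0.75), and it was -1.93 without M2_A and 0.03 without M17_1. The median of the list was -1.305 without M2_A and -0.09 without M17_1. Pigr, the epithelial receptor that carries antibodies into the lumen, had a log2 fold of -0.10 (SE 0.13). B cell and follicle genes had a median of -0.64, with 14 of 15 below 0, of -1.24 without M2_A and of 0.802 with all 12 mice. Fcmr, the Fc receptor for IgM, was the 1 of 15 at an unadjusted p under 0.05, beside 1.06% of all genes lower at that p. It was at 0.0101 to 0.0988 CPM against 0.0369 to 0.349 in WT (log2 fold -1.998, SE 0.72). These values rest on 2 to 10 counts per APC Min/+ mouse and 2 to 34 per WT mouse. The 2 left-out APC Min/+ mice held 0.371 and 4.715 plain CPM, and the log2 fold with all 12 mice was 2.385. T cell genes had a median of -0.16, with 17 of 17 below 0 and 0 at an unadjusted p under 0.05. Their median was -0.03 without M20_1, with 11 of 17 below 0, and -0.29 without M2_A.

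The macrophage and MHC class II list had a median log2 fold of -0.01, and the 95% interval lay within 2-fold for 19 of 19 members. The median was -0.19 without M2_A and 0.15 without M16_1. Lyz2, a lysozyme of macrophages, was counted at 100, 124, 200 and 111 CPM against 116 to 221 (median 129). Antimicrobial and inflammatory genes had a median of -0.12 over 20 tested, a range of -0.43 to 0.51 and intervals within 2-fold for 11 of the 20. The list was led per length by Lypd8 and Zg16 with log2 folds of -0.08 (SE 0.14) and -0.11 (SE 0.16). Interferon-stimulated genes had a median of 0.01 (0.255 without M17_1) and a range of -0.44 to 0.23. Mx1, a GTPase that restricts viruses, was the 1 of 18 at an unadjusted p under 0.05, beside 1.06% of all genes lower at that p. It was counted at 6.25, 6.56, 6.18 and 6.90 CPM against 6.74 to 11.9 (median 8.44), with only M20_1 above the lowest WT mouse.

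Among epithelial lists, absorptive colonocyte genes had a median log2 fold of 0.03 over 19 genes, goblet cell genes -0.14 over 12, enteroendocrine and tuft cell genes -0.19 over 18, and small intestine genes 0.09 over 13. The first and the last of these turned to -0.04 and -0.83 without M18_2b. In these 4 lists 0 members had an unadjusted p under 0.05. Car1 had a log2 fold of 0.09 (SE 0.23), Muc2 -0.31 (SE 0.30), Chga, a granule protein of enteroendocrine cells, -0.01 (SE 0.23), and Fabp2, a fatty acid binding protein, 0.22 (SE 0.25). The exocrine pancreas list, of which 5 of 13 genes were tested, had a median of -0.17.

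In the smooth muscle list 10 of 10 members had a log2 fold above 0, with a median of 0.20, and 2 had an unadjusted p under 0.05, beside 0.531% of all genes. Actg2, the enteric smooth muscle actin, was counted at 754, 486, 859 and 789 CPM in M8_2, M18_2b, M2_A and M20_1, and at 481 to 659 (median 506) in WT. M18_2b lay at the bottom of the WT range and the other 3 above its top. This gave a log2 fold of 0.41 (SE 0.16, unadjusted p = 0.0286, FDR 0.9999, edgeR). Des, the muscle intermediate filament, had a log2 fold of 0.37 (SE 0.15). In the enteric neuron and glia list 9 of 11 were above 0 with a median of 0.26. Gfap, a filament of glia, was the 1 of 11 past an unadjusted p of 0.05 (0.67, SE 0.28), beside 0.531% of all genes higher. Adipocyte genes had a median of 0.43 with 0 past that p. Their sum was 395, 751, 1616 and 567 plain CPM against 478 to 1019 (median 682) in WT, so M2_A alone exceeded the WT range. Without M2_A the median was -0.36, with 9 of 10 members below 0, and with all 12 mice it was -0.02.

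Lists tied to handling and time of day varied between mice. Immediate early genes, which are induced within minutes of a stimulus, had a median log2 fold of 0.42 with 17 of 18 above 0. Nr4a1 was the 1 of 18 at an unadjusted p under 0.05 (1.03, SE 0.47), beside 0.531% of all genes higher. The sums of the list were 1311, 1021, 807 and 1001 plain CPM against 305 to 1087 (median 798). The low WT values were those of M17_1 and M18_2a. Circadian clock genes had a median of -0.12. Ciart, a clock repressor, was the 1 of 17 at an unadjusted p under 0.05 (-0.52, SE 0.23), beside 1.06% of all genes lower. Heat shock and chaperone genes had a median of -0.14 and red blood cell genes -0.35, each with 0 members past that p. The clock median was 0.06 without M2_A and the red blood cell median 0.345 without M16_1.

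Mitochondrially encoded genes were below 0 in 15 of 15 cases, with a median log2 fold of -0.31 and 0 at an unadjusted p under 0.05. The median was -0.13 without M17_1 and -0.495 without M2_A, with 15 of 15 below 0 in both. They took 5.34%, 6.19%, 8.46% and 7.12% of the counts in M8_2, M18_2b, M2_A and M20_1, and 6.00% to 12.7% (median 7.39%) in WT. The means were 6.78 ± 1.34% (SD, n = 4) and 7.93 ± 2.50% (SD, n = 6), with p = 0.443 in an exact permutation test on the log2 share. The log2 difference was -0.197 in the 10 mice and -0.051 without M17_1.

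**Figure D5:**
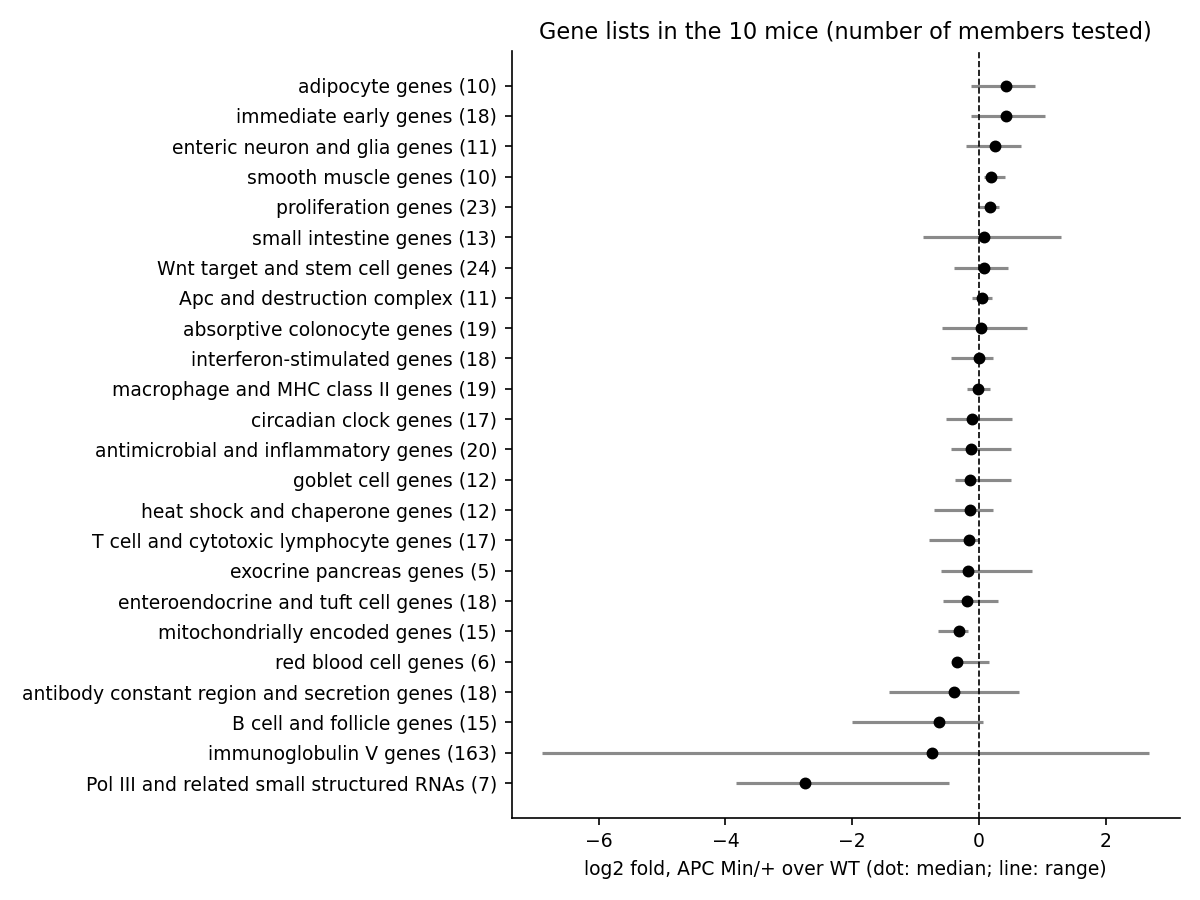
Median (dot) and range (line) of the log2 fold (APC Min/+ over WT, 10 mice) of the tested members of each gene list, with the number tested in parentheses. The small structured RNAs have the lowest median, -2.74, and the adipocyte list the highest, 0.43, which is -0.36 without M2_A; no member of any list passed an FDR under 0.05.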

How the data were processed

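Proximal colon RNA was sequenced in paired ends. Per the labels and the study's methods, the authors aligned reads to GRCm38 with STAR 2.3.0, used featureCounts to count them per gene, and deposited the raw counts with gene lengths in 1 table per mouse. The strand setting, annotation release, treatment of multi-mapped reads and RNA selection are not given in the sources used here. Symbols and coordinates came from GENCODE M21 by Ensembl ID (37607 of 38924 genes). Groups came from the labels.

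Genes reaching 10 counts in 3 or more of the 10 mice were tested with edgeR 4.0.16 (R 4.3.3; TMM factors 0.919 to 1.08, glmQLFit, glmQLFTest, Benjamini-Hochberg); SE is the log2 fold over the root of F. Alternatives used DESeq2 1.42.0 and limma 3.58.1. Single values were compared by exact permutation over mice (210 arrangements). RPKM ranked members only. Sequences were aligned with Biopython. The code was tested on simulated data. The mice, gene lists and tests were chosen with earlier results of these data known. Genes named were the 12 of lowest unadjusted p in each direction with ranges that did not overlap, the 2 highest in RPKM and the members past an unadjusted p of 0.05 of each list (the last added after seeing values), Apc, the posterior Hox genes and the 2 of lowest p per study cluster. Counts of mates may be separate, so low counts overstate independent fragments.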

Additional observations from a re-analysis of the deposited data

Results flagged for a closer look

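Values of each list and leading gene were checked for a mouse lying far from the rest of its genotype by Dixon's test, over 102 groups of 4 or 6 mice. Chance alone picks out about 1 group in 20, and 11 were picked out here. Of these, 6 were WT mouse M17_1. It held 12.7% of counts on mitochondrial genes, against 6.00% to 8.08% in the other WT mice. Its summed Apc and destruction complex genes were at 1515.1 plain CPM, against 2051 to 2222. Its goblet cell genes were at 19176.5 plain CPM, against 11383 to 12705, and its exocrine pancreas genes at 104.1, against 65.2 to 74.4. Its Gm22513 was at 6.29 CPM, against 0.164 to 0.7, and its 0610043K17Rik at 0.428 CPM, against 0.217 to 0.295.

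WT mouse M18_b had the highest summed proliferation genes of its genotype, at 970.5 plain CPM against 749.5 to 807.2, and the lowest Dnah1, at 0.241 CPM against 0.456 to 0.568. WT mouse M16_1 had the highest macrophage and MHC class II genes, at 948.2 plain CPM against 532.2 to 672.2, and the highest red blood cell genes, at 256.8 against 31.4 to 103.4. Among APC Min/+ mice, M8_2 was the only one with Gm26035, at 0.0101 CPM, which is 2 counts.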

How the results depend on the processing

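No gene was called in any of the 23 settings without the 2 left-out mice, among them the newer quasi-likelihood method of edgeR, halved counts and the fit without M17_1 and M18_2a, all added after seeing the data. With all 12 mice the likelihood ratio test called 15 genes (10 higher, 5 lower) and DESeq2 27 (20 higher, 7 lower), also added afterwards. Genes at an unadjusted p under 0.05 numbered 317, 600 with no filter, 206 without M17_1 and M18_2a, and 1071 (quasi-likelihood), 1183 (newer method), 1131 (likelihood ratio) and 1316 (DESeq2) with all 12 mice. Leaving out each mouse gave 227 to 589, with 480 without WT M17_2 and 589 without WT M18_b. Genes whose ranges did not overlap numbered 49, 187 without M17_1 and M18_2a, and 24 (23 on DESeq2's scale) with all 12 mice. Leaving out each mouse gave 81 to 231, a rise that fewer mice bring by construction. The Apc log2 fold of 0.048 turned to -0.011 without APC Min/+ M8_2 and to -0.002 without WT M17_1, and reached 0.131 without WT M18_2a. The small structured RNA log2 difference of -1.996 lay between -2.385 and -1.498 when each mouse was left out. The value of -2.385 came without WT M16_1 (exact permutation p = 0.0476). With all 12 mice the difference was -2.304 (exact permutation p = 0.013). These p-values are a description, since the study had called several of these RNAs lower on these same libraries. The values of gene lists and of the mitochondrial share without single mice were also added after seeing the data. The cause of these shifts was not tested. The name ending as a term left 0 genes called. No paired analysis was possible because the labels give no replicate numbers (those used here follow accession order), and across genotypes the mice share a leading name number only between M18_2b and both M18_2a and M18_b.

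Counts per mouse were few for genes near the filter, such as Apon (6 to 14 in APC Min/+ mice, 0 to 2 in WT), and whether depth limited the number of genes called was not tested. The p-values set a difference between genotypes against the spread among 4 and 6 mice, and do not themselves measure that spread. Cage and shipment could not be modelled.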
